A study of Mus musculus with 10 samples.

Results

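The mRNA levels of 9 genes of the NF-kB system were examined in obstructed mouse kidneys with and without a Padi4 knockout. They are the transcription factor genes Rela, Relb, Nfkb1 and Nfkb2, the feedback inhibitor genes Nfkbia, Nfkbiz and Tnfaip3, the ubiquitin ligase gene Birc3 and the kinase gene Ikbke. These genes were chosen by symbol, all 9 were found among the 54532 genes of the deposited table, and all 9 passed the filter on low values. Kidneys had been obstructed for 10 days by unilateral ureteral obstruction, which closes the ureter of 1 kidney and causes inflammation and scarring above the block. One group held 5 libraries of wild-type mice and the other 5 libraries of mice with the genotype Padi4-knockout. No unobstructed kidney was compared, so the values say nothing of levels before injury. Strain, age and the deleted exons are not given in the labels used here. Nor do they state whether each library is a separate mouse, and p-values here reflect only the spread among these libraries, which may be technical.

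NF-kB is a family of transcription factors that wait in the cytoplasm bound to inhibitors of the IkB family. Signals from TNF, interleukin-1 and Toll-like receptors switch on the IkB kinases, the inhibitor is degraded, and dimers of Rela and the product of Nfkb1 enter the nucleus (the canonical arm). A slower arm (the non-canonical arm) processes the product of Nfkb2 and releases dimers with Relb. NF-kB then drives the genes of its own inhibitors, among them Nfkbia and Tnfaip3, and this negative feedback limits the response. In the obstructed kidney NF-kB is known as a driver of chemokine and cytokine genes in injured tubules and in infiltrating leukocytes. Padi4 encodes PAD4, an enzyme that turns arginine into citrulline in proteins. PAD4 has been reported to citrullinate the Rela protein in neutrophils, a modification that mRNA levels do not measure.

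NF-kB is known to bind the kappa-B motif, and matches to it were looked for at the starts of the 9 genes. The RefSeq promoter table (build GRCm38.p6, 250 bases before to 50 bases after each start) held 9 entries for 6 of the 9 genes: Rela, Nfkb2, Nfkbia, Tnfaip3, Birc3 and Ikbke. Both strands were searched for the kappa-B consensus of 10 bases, GGGRNNYYCC, where R is A or G, Y is C or T and N is any base. Of 32851 promoters in the table, 8.46% held at least 1 match, 1.22% at least 2 and 0.186% at least 3, each of 2 overlapping matches being counted. Matches occurred in 5 of the 9 entries, belonging to Nfkb2, Nfkbia and Tnfaip3. The entries shown are those of the inhibitor genes Nfkbia and Tnfaip3, the first and second starts of Nfkb2, and Rela as a subunit gene without a match. Capitals mark the matches, and each sequence reads 5′ to 3′ on the strand of the gene.
Nfkbia, chr12:55492598-55492897, minus strand: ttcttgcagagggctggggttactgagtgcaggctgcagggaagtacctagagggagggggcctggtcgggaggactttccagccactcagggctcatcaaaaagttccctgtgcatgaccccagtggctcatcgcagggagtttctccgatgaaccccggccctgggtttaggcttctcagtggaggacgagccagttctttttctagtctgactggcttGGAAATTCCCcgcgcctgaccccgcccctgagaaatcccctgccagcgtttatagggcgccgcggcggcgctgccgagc
Tnfaip3, chr10:19015361-19015660, minus strand: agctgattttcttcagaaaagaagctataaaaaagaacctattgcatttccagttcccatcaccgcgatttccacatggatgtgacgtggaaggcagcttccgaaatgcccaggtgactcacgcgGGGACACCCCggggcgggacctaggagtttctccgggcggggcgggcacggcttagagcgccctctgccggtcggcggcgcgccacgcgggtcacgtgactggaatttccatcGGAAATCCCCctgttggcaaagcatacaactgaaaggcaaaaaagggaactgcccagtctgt
Nfkb2, first start, chr19:46304487-46304786, plus strand: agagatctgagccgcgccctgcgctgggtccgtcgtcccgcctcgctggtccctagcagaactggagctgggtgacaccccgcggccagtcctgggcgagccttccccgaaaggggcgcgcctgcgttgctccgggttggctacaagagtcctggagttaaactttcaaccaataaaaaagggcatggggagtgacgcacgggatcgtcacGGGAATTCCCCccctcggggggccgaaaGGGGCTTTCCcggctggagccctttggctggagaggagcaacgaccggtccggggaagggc
Nfkb2, second start, chr19:46305445-46305744, plus strand: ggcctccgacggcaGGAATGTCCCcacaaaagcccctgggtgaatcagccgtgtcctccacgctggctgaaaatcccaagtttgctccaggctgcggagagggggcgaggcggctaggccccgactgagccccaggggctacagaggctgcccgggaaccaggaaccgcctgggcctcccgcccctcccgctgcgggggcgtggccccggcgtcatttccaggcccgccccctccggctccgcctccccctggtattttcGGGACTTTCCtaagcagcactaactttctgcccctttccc
Rela, chr19:5637291-5637590, plus strand: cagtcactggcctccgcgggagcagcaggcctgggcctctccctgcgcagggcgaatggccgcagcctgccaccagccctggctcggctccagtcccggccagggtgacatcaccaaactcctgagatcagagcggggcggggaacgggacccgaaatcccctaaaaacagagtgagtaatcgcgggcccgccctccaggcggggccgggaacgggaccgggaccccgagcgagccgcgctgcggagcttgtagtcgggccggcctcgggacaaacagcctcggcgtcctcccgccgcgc
Positions count from 0 at the start and are negative before it. The matches GGAAATTCCC, GGAAATCCCC, GGAATTCCCC and GGAATGTCCC fit the consensus only on the opposite strand and are printed here as the gene strand reads. In Nfkbia the match GGAAATTCCC began at -29, and in Tnfaip3 the matches GGGACACCCC and GGAAATCCCC began at -125 and -12. The first Nfkb2 start had GGGAATTCCC at -39, overlapped by GGAATTCCCC at -38, and GGGGCTTTCC at -11. At the second start of Nfkb2, GGAATGTCCC began at -236 and GGGACTTTCC at 10. Another Nfkb2 entry, not shown, overlaps the second and shares its GGGACTTTCC. The other Tnfaip3 start and the Birc3, Ikbke and Rela entries had no match in these windows. A match is a description of the letters and does not show that a factor bound there.

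Library depth was even and the tissue was kidney by its markers. Recovered reads numbered 15002922 to 16886945 per library. All 7 proximal tubule markers and all 8 markers of later nephron segments had values above 0 in every library. Padi4 itself stood at 0.358 FPKM ± 0.183 (SD, n = 5) in the wild-type group against 0.256 FPKM ± 0.164 (SD, n = 5) in the knockout group, on 6 to 47 reads per library, a difference within the spread (exact two-sided permutation p = 0.373). This level does not check the genotype labels, and "knockout" below means labelled so. Wild-type 1 stood apart. Its 16 leukocyte markers summed to 895 FPKM, against 2010 to 2670 FPKM in the other wild-type and 1800 to 1990 FPKM in the knockout libraries. Its 7 proximal tubule markers summed to 1760 FPKM, against 514 to 1110 FPKM in the other 9 libraries. The leukocyte sum was mostly Cd74 (71.8%) and Lyz2 (22.1%), so it weighs antigen-presenting and myeloid cells above lymphocytes. Not all of the 16 markers were low in wild-type 1. The neutrophil marker S100a9 was highest there, at 7.91 FPKM against 2.61 to 6.95 FPKM in the other 9 libraries. Ptprc, at 3.95 FPKM, lay within their range of 3.86 to 7.25 FPKM. Of the 13 leukocyte markers above the filter, 10 had lower knockout values on the log2 scale and none passed. Mitochondrial genes took 8.114% of reads in wild-type 1, against 3.184% to 5.786% in the other 9 libraries, and its size factor was 0.8589, against 0.977 to 1.0569.

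None of the 9 genes passed the threshold between the genotypes. Limma tested 13435 genes, 0% of them passed a Benjamini-Hochberg adjusted p of 0.05, and none of the 9 did. At an unadjusted limma p under 0.05 stood 4.05% of all genes tested and 1 of the 9, Nfkbiz. The wild-type and knockout ranges overlapped for all 9, where 0.744% of all genes tested had groups that did not overlap. Knockout means on the log2 scale were lower for 7 of the 9 and higher for Nfkbia and Tnfaip3, while 48.4% of all genes tested were lower. The median difference over the 9 was -0.088 in log2(FPKM + 1), knockout minus wild type, against 0.0051 over all genes tested. Without wild-type 1 the lower genes numbered 8 of 9, since Tnfaip3 changed sign, and without wild-type 2 or knockout 4 they numbered 5.

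**Figure D1:**
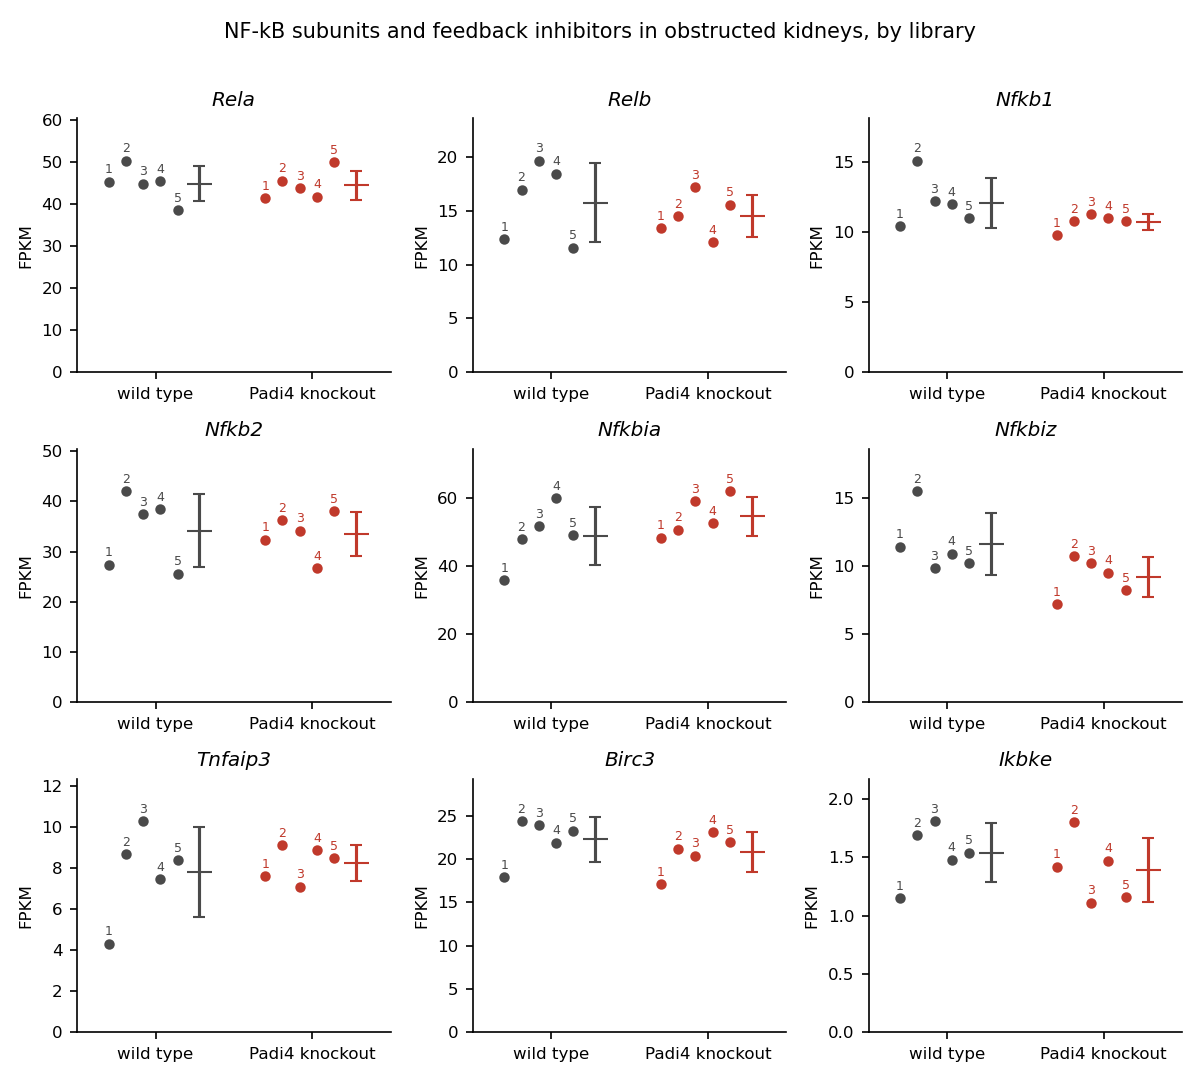
Each panel shows 1 gene in FPKM (vertical axis, from 0), with a numbered point per library, wild type in grey and Padi4 knockout in red. The bar and whiskers give the group mean and SD (n = 5). The 2 groups overlap in every panel, wild-type 2 is the highest library for Nfkbiz at 15.5 FPKM, and wild-type 1 is the lowest for Tnfaip3 at 4.32 FPKM.

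Rela was the most abundant of the subunits and the most even of the 9 genes. It encodes p65, the subunit with the main activation domain, and maps to chr19:5637483-5648130 (plus strand). Its level was 45.4, 50.4, 44.9, 45.5 and 38.6 FPKM in wild-type 1 to 5, and 41.5, 45.6, 43.9, 41.8 and 50 FPKM in knockout 1 to 5. Wild-type 5 was lowest and wild-type 2 highest, with knockout 5 beside it, so the wild-type range enclosed the knockout range. The means were 44.9 FPKM ± 4.2 and 44.5 FPKM ± 3.45 (SD, n = 5 each), a log2 difference of -0.011 with a 95% interval of -0.21 to 0.19 (limma adjusted p = 0.996). On the linear scale of FPKM + 1 that interval runs from 0.863 to 1.14 times the wild-type level. The sign of so small a difference rested on single libraries and turned to 0.031 when wild-type 2 was left out, to 0.013 for knockout 1 and to 0.011 for knockout 4.

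Nfkb1, the gene of the p105 precursor and its product p50, had lower values in knockout kidneys without passing the threshold. It maps to chr3:135584655-135691547 (minus strand). Wild-type 1 to 5 measured 10.4, 15.1, 12.2, 12 and 11 FPKM, and knockout 1 to 5 measured 9.78, 10.8, 11.3, 11 and 10.8 FPKM. All 5 knockout libraries lay below the wild-type mean, and 3 wild-type libraries lay above every knockout library, although wild-type 1 and 5 fell among them. The means were 12.1 FPKM ± 1.78 and 10.7 FPKM ± 0.567 (SD, n = 5 each), a log2 difference of -0.15 with a 95% interval of -0.36 to 0.056 (limma adjusted p = 0.976). Without wild-type 2 the difference was -0.080, and without wild-type 1 it was -0.20.

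Nfkb2 and Relb, the genes of the non-canonical arm, were low in the same libraries and did not pass between the groups. Nfkb2 encodes the p100 precursor of p52 and maps to chr19:46304737-46312090 (plus strand). It measured 27.4, 42.1, 37.5, 38.4 and 25.6 FPKM in wild-type 1 to 5, and 32.4, 36.2, 34.2, 26.7 and 38.1 FPKM in knockout 1 to 5. Both ends of this range were wild-type libraries, and the groups overlapped throughout. The Nfkb2 means were 34.2 FPKM ± 7.27 and 33.5 FPKM ± 4.4 (SD, n = 5 each), and the log2 difference was -0.011, with a 95% interval of -0.34 to 0.32 (limma adjusted p = 0.998). Leaving out wild-type 2, 3 or 4 turned it to 0.068, 0.028 and 0.036, and leaving out knockout 4 turned it to 0.066. Relb, the partner of p52, maps to chr7:19606217-19629438 (minus strand). Its values were 12.4, 17.0, 19.7, 18.5 and 11.6 FPKM in wild-type 1 to 5, and 13.4, 14.5, 17.2, 12.1 and 15.6 FPKM in knockout 1 to 5. Wild-type 1 and 5 lay at the low end and wild-type 3 and 4 above every knockout library, so the groups overlapped. With means of 15.8 FPKM ± 3.65 and 14.5 FPKM ± 1.96 (SD, n = 5 each), the Relb difference was -0.097, with a 95% interval of -0.43 to 0.23 (limma adjusted p = 0.976). Leaving out wild-type 5 gave -0.19, and leaving out wild-type 3 gave -0.014. The shared pattern is a description of these libraries, without a test. The 4 libraries lowest in Nfkb2 were wild-type 5, knockout 4, wild-type 1 and knockout 1, and the same 4 were lowest in Relb. Of the highest 4 libraries, both genes shared 3. This likeness was not particular to the pair. Over the 10 libraries Pearson's r in log2(FPKM + 1) was 0.858 for Nfkb2 with Relb, 0.801 for Nfkb1 with Nfkbiz and 0.785 for Nfkb2 with Rela. Leaving out wild-type 1 gave 0.836, 0.898 and 0.892 in that order, and Nfkb1 and Relb shared all of their 4 highest libraries. The ratio of Relb to Nfkb2 FPKM ranged only from 0.4 to 0.527 over the 10 libraries, while Relb itself ranged from 11.6 to 19.7 FPKM.

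The make-up of the Rel family differed little between the groups. Of the summed FPKM of the 5 family genes, Rela held 41.5% ± 3.44 in wild-type and 42.4% ± 1.45 in knockout kidneys (SD, n = 5 each). Nfkb2 held 31.0% ± 2.43 and 31.8% ± 1.99, Relb 14.4% ± 1.88 and 13.8% ± 1.19, and Nfkb1 11.2% ± 0.923 and 10.3% ± 0.906. Rel, the gene of c-Rel, which lymphocytes and myeloid cells carry, held 1.93% ± 0.302 and 1.82% ± 0.511. Rela was the largest share in every library, from 38.4% in wild-type 3 to 46.6% in wild-type 1. In whole kidney RNA, fewer cells of a type and less RNA per cell cannot be told apart.

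**Figure D2:**
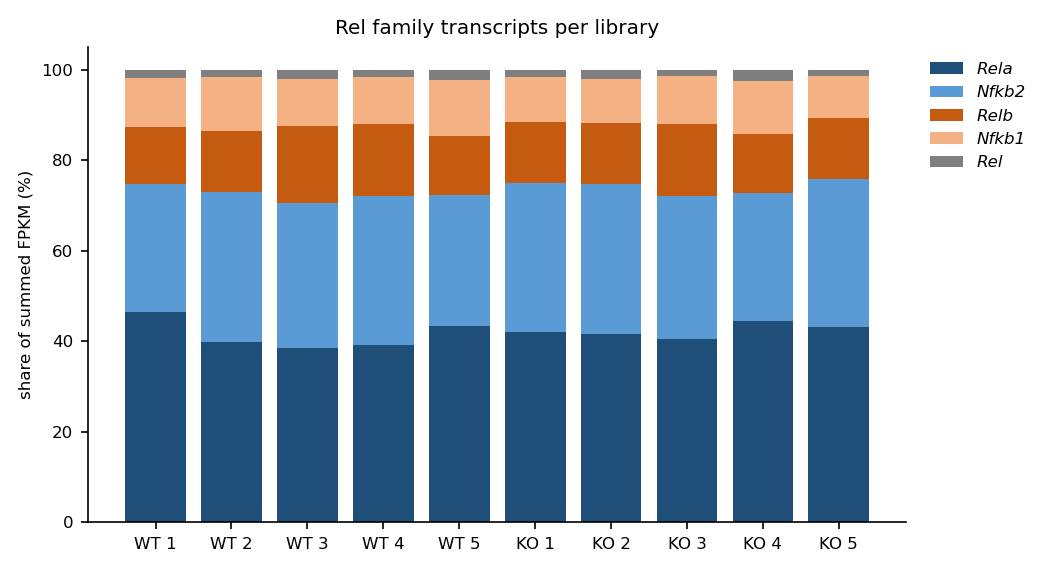
Stacked bars give the share of summed FPKM (vertical axis, percent) held by Rela, Nfkb2, Relb, Nfkb1 and Rel in wild-type (WT) 1 to 5 and knockout (KO) 1 to 5. Rela and Nfkb2 fill most of every bar, and Rel stays between 1.34% and 2.61%.

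Nfkbia was the most abundant of the 9 genes on average. It encodes IkB alpha, the inhibitor that NF-kB induces and that holds Rela dimers in the cytoplasm, and maps to chr12:55489410-55492647 (minus strand). Wild-type 1 to 5 measured 35.9, 47.9, 51.6, 59.8 and 49.1 FPKM, and knockout 1 to 5 measured 48.3, 50.6, 59.0, 52.6 and 62.0 FPKM. Wild-type 1 was the lowest of the 10 libraries, and knockout 5 the highest. The means were 48.8 FPKM ± 8.59 and 54.5 FPKM ± 5.79 (SD, n = 5 each), a log2 difference of 0.17 with a 95% interval of -0.12 to 0.45 (limma adjusted p = 0.976). Without wild-type 1 the difference was 0.063, and without wild-type 4 it was 0.24. Set against Rela in the same library, the Nfkbia ratio was 1.1 ± 0.221 in wild-type and 1.22 ± 0.0896 in knockout kidneys (SD, n = 5 each, exact two-sided permutation p = 0.286). The ratio was lowest in wild-type 1, at 0.791.

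Nfkbiz differed most between the groups of the 9 genes. It encodes IkB zeta, a nuclear member of the inhibitor family that is needed to switch on secondary NF-kB targets such as Il6 and Lcn2, and maps to chr16:55811375-55838899 (minus strand). Its level was 11.4, 15.5, 9.84, 10.9 and 10.2 FPKM in wild-type 1 to 5, and 7.17, 10.7, 10.2, 9.51 and 8.2 FPKM in knockout 1 to 5. Knockout 1, 4 and 5 lay below every wild-type library, wild-type 1, 2 and 4 lay above every knockout library, and the remaining 4 libraries were mixed. The means were 11.6 FPKM ± 2.28 and 9.17 FPKM ± 1.47 (SD, n = 5 each), a log2 difference of -0.30 with a 95% interval of -0.60 to -0.011 (limma adjusted p = 0.976). That interval is for 1 gene taken alone and does not allow for the 13435 genes tested. The difference was -0.20 without wild-type 2, whose value was far above the others, and -0.23 without knockout 1. Nfkbiz kept its sign under all 17 alternatives, with limma adjusted p between 0.542 and 1. Some of these could not change it. Dropping or lowering the filter, dropping the variance trend or adding a replicate block leaves the difference as it is. The unadjusted p of Nfkbiz was under 0.05 in 11 of the 17, and not when wild-type 1, 2 or 4 or knockout 1, 4 or 5 was left out.

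Tnfaip3 showed how much a single library weighed. It encodes A20, a ubiquitin-editing enzyme that shuts down signalling from the TNF receptor, and maps to chr10:19000910-19015657 (minus strand). The level was 4.32, 8.7, 10.3, 7.48 and 8.41 FPKM in wild-type 1 to 5, and 7.61, 9.14, 7.11, 8.88 and 8.49 FPKM in knockout 1 to 5. Wild-type 1 lay below all other libraries, and the other 4 wild-type libraries, from 7.48 to 10.3 FPKM, covered nearly the same range as the knockout libraries, from 7.11 to 9.14 FPKM. The means were 7.83 FPKM ± 2.2 and 8.25 FPKM ± 0.863 (SD, n = 5 each). With all libraries the log2 difference was 0.10, with a 95% interval of -0.27 to 0.48 (limma adjusted p = 0.976). Without wild-type 1 it was -0.068. Wild-type 1 was among the lowest 3 libraries for 7 of the 9 genes. For Nfkbiz, at 11.4 FPKM, it was instead exceeded only by wild-type 2, and for Rela it lay in the middle of the order. The low Tnfaip3 and Nfkbia of wild-type 1 stand beside its low sum of leukocyte markers and its high sum of proximal tubule markers, its higher mitochondrial share and its lower size factor. The part of any of these in the values was not tested.

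**Figure D3:**
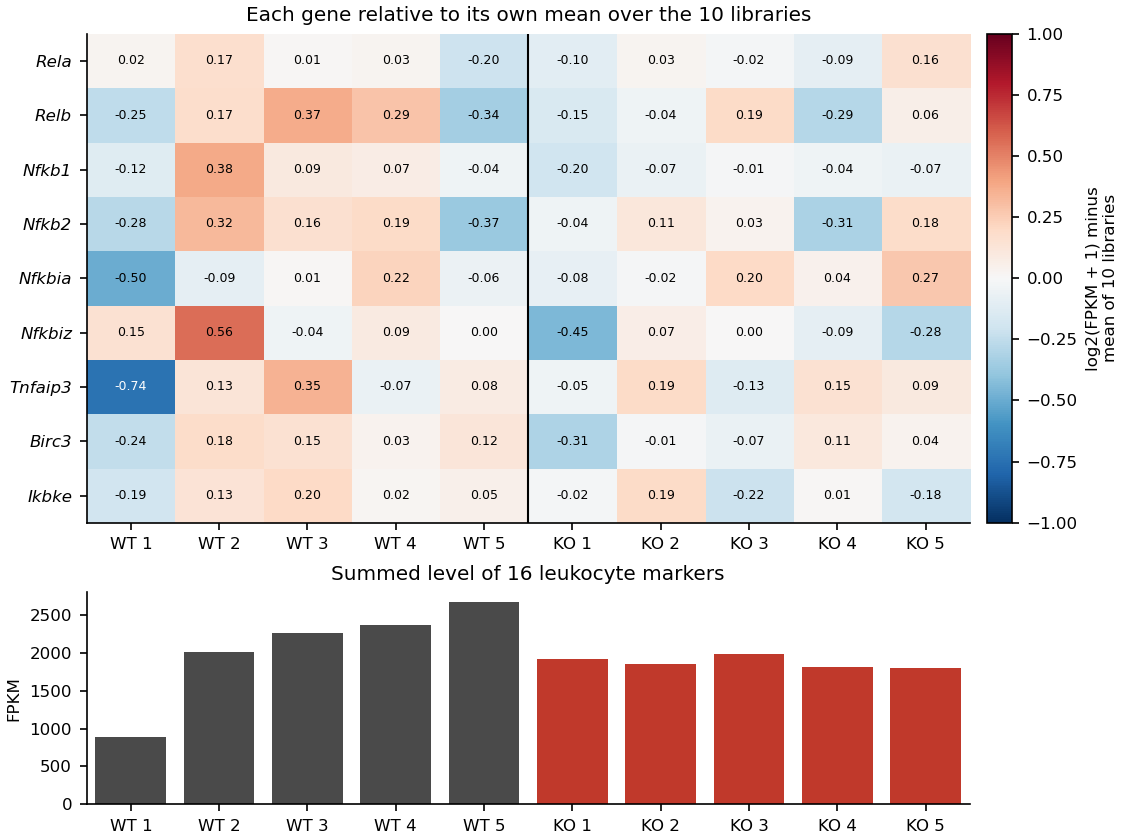
Colours and printed values give log2(FPKM + 1) of each gene (rows) minus its mean over the 10 libraries (columns), and the lower bars give the summed FPKM of 16 leukocyte markers. Wild-type 1 was lowest for Nfkbia and Tnfaip3 and has the lowest bar at 895 FPKM, and Nfkb2 and Relb share their 4 lowest libraries.

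Birc3 and Ikbke completed the group, and neither passed. Birc3 encodes cIAP2, an NF-kB-induced ubiquitin ligase that protects cells from TNF-driven death and lowers the kinase of the non-canonical arm, and maps to chr9:7848699-7873186 (minus strand). It measured 17.9, 24.4, 23.9, 21.9 and 23.3 FPKM in wild-type 1 to 5, and 17.1, 21.2, 20.4, 23.1 and 22.0 FPKM in knockout 1 to 5. Wild-type 1 and knockout 1 were the lowest libraries, and 3 wild-type libraries lay above every knockout library. The means were 22.3 FPKM ± 2.62 and 20.8 FPKM ± 2.3 (SD, n = 5 each), and the log2 difference was -0.097 with a 95% interval of -0.33 to 0.14 (limma adjusted p = 0.976). It was -0.17 without wild-type 1 and -0.031 without knockout 1. Ikbke encodes IKK epsilon, an inducible kinase that also activates interferon regulatory factors, and maps to chr1:131254343-131279606 (minus strand). It was the lowest of the 9, at 1.15, 1.69, 1.81, 1.48 and 1.54 FPKM in wild-type 1 to 5 and 1.42, 1.8, 1.11, 1.47 and 1.16 FPKM in knockout 1 to 5. Both groups held low and high libraries over nearly the same range. The means were 1.54 FPKM ± 0.25 and 1.39 FPKM ± 0.277 (SD, n = 5 each), and the log2 difference was -0.088 with a 95% interval of -0.33 to 0.16 (limma adjusted p = 0.976). The pseudocount of 1 shrinks so low a gene, and limma-voom on the recovered reads gave -0.16. Leaving out 1 library moved Ikbke between -0.15 (without knockout 2) and -0.045 (without knockout 3).

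**Figure D4:**
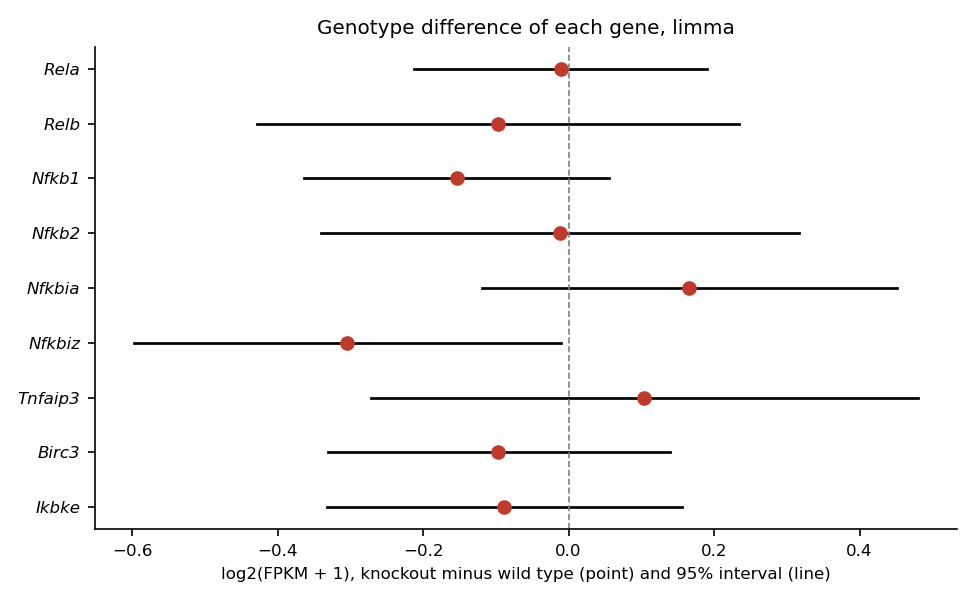
Points give the limma difference of each gene, knockout minus wild type, in log2(FPKM + 1) (horizontal axis), and lines the 95% interval for that gene alone, from 5 libraries per group. The line of Nfkbiz, from -0.60 to -0.011, is the only 1 of the 9 that does not cross 0, and no gene passed after adjustment over all genes.

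Counting error was smaller than the spread between libraries for each of the 9 genes. A mean of 210 reads per library for Ikbke and of 827 to 2200 for the other 8 genes gives a counting error of 6.89% for Ikbke and 2.13% to 3.48% for the others. The observed coefficient of variation over the 10 libraries was 17.8% for Ikbke and 8.11% to 21.3% for the others. Rela varied least and Nfkbiz most.

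The order of levels, in FPKM and thus per length, was Nfkbia, Rela, Nfkb2, Birc3, Relb, Nfkb1, Nfkbiz, Tnfaip3 and Ikbke, from a mean of 51.7 down to 1.46 FPKM over the 10 libraries. The order held in all 10 libraries at the steps from Rela to Nfkb2, Nfkb2 to Birc3, Birc3 to Relb, Relb to Nfkb1 and Tnfaip3 to Ikbke. Nfkbia exceeded Rela in 8 of 10 libraries and Nfkb1 exceeded Nfkbiz in 8 of 10, the exceptions being wild-type 1 and 2 in both cases. Nfkbiz exceeded Tnfaip3 in 7 of 10. These 3 neighbouring steps therefore did not hold in every library.

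Genes with the most similar course over the 10 libraries were taken for each of the 9 by the highest Pearson correlation of log2(FPKM + 1) among all genes tested. These values are descriptive: the highest of 13435 correlations is high in any small set, and libraries share their cell make-up. Nfkb1 was most like Fosl2, an AP-1 gene (r = 0.971, Spearman 0.782), and Tmem173, the gene of STING (r = 0.927, Spearman 0.879). Nfkb2 was most like Synpo (r = 0.976) and the chemokine gene Ccl12 (r = 0.973), and Rela most like Atxn2l (r = 0.929) and Ywhag (r = 0.927). For Relb these were Jpt1 (r = 0.922) and Ltb4r1, a leukotriene receptor gene (r = 0.912). For Birc3 they were Ugcg (r = 0.944) and Tcf7l2 (r = 0.943), for Ikbke Klf7 (r = 0.928) and Pard3b (r = 0.925), and for Nfkbiz Qtrt2 (r = 0.965) and Hs3st1 (r = 0.935). Tnfaip3 was most like Antxr1 (r = 0.955) and the macrophage elastase gene Mmp12 (r = 0.944), and without wild-type 1 these were 0.803 and 0.786. For Nfkbia, most like Twf2 and Mfap2 (r = 0.969 and 0.963), they were 0.913 and 0.902 without it. None of these nearest genes was another of the 9.

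Around the 9 genes, 93 further genes of the pathway were listed by role, 82 were measured above the filter, and none passed in either direction. Lower values in knockout kidneys were found for 58 of the 82 and higher for 24, with a median log2 difference of -0.062, against 0.0051 over all genes tested, of which 48.4% were lower. An unadjusted limma p under 0.05 was reached by 2 of the 82, Il1b and Tab1, where the share over all genes was 4.05%. Without wild-type 1 that number was 10, where the share over all genes was 6.82%, and still none passed. With 1 library left out, the 58 lower genes became 49 (without knockout 1) to 62 (without knockout 3). The counts of lower genes by role below are parts of the 58, stand beside the same share of 48.4%, and were not tested.

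Ligands and receptors came first in order of signalling. Of 6 measured ligands 4 had lower values, and of 10 measured receptors 7. Il1b, the gene of the cytokine interleukin-1 beta, measured 3.91, 4.74, 4.43, 4.27 and 6.1 FPKM in wild-type 1 to 5 and 2.44, 3.11, 3.15, 2.99 and 3.95 FPKM in knockout 1 to 5. Its groups overlapped only through wild-type 1 and knockout 5, and its log2 difference was -0.46 with an unadjusted limma p under 0.05 and an adjusted p of 0.976. Over the alternatives the Il1b difference lay between -0.58 and -0.38. Markers of neutrophils, which are among the sources of Il1b, were lower beside it: S100a9 ranged from 5.17 to 7.91 FPKM in wild-type and from 2.61 to 4.39 FPKM in knockout libraries. S100a8 ranged from 3.46 to 5.69 and from 0.816 to 4.17 FPKM, and Csf3r from 2.74 to 3.39 and from 2.07 to 2.57 FPKM. The myeloid markers Csf1r, Lyz2 and Cd68 of the same list were instead higher, by 0.172, 0.125 and 0.00402 on the log2 scale. Adgre1 and Itgam differed by -0.345 and -0.105. None of these markers passed in limma. They were named after their values were seen, and their part in the Il1b values was not tested. Tnfsf12, which encodes the TNF family ligand TWEAK, had means of 8.65 FPKM ± 1.62 (wild type) and 10.1 FPKM ± 0.985 (knockout; SD, n = 5 each). The TNF receptor genes Tnfrsf1b and Tnfrsf1a differed by -0.24 and -0.18 on the log2 scale (limma adjusted p = 0.976 for both). The value of Tnfrsf1b moved to -0.14 without wild-type 2 and that of Tnfrsf1a to -0.28 without knockout 5, while Tnf itself stood at 1.07 FPKM ± 0.396 and 1.41 FPKM ± 0.462 (SD, n = 5 each). Tnf is named here although it was chosen after its values were seen.

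Adaptors, kinases and their brakes held no gene that passed. Of 13 measured kinases and kinase partners 11 had lower values, with a median log2 difference of -0.068. The exception with the smallest p was Tab1, a partner of the kinase TAK1, with means of 7.43 FPKM ± 0.879 (wild type) and 8.93 FPKM ± 0.994 (knockout; SD, n = 5 each), a difference of 0.24 (limma adjusted p = 0.976). The Tab1 difference was 0.17 without wild-type 5, its lowest library at 5.99 FPKM. Over the alternatives the unadjusted limma p of Tab1 reached 0.0918. Ripk1, a kinase at the TNF receptor, differed by -0.16. Of 13 TRAF adaptors and ubiquitin ligases 9 had lower values; Sharpin, a subunit of the linear ubiquitin ligase, differed by 0.13 and Traf3, a brake on the non-canonical arm, by -0.13. Of 11 deubiquitinases and A20 partners 10 had lower values, with a median of -0.067, Zc3h12a (an RNase that degrades cytokine mRNA) at -0.18 and Tank (a TRAF-binding adaptor) at -0.12. Single libraries weighed on these small values: leaving out wild-type 2 gave -0.078 for Zc3h12a and -0.076 for Traf3, and leaving out knockout 1 gave -0.050 for Tank. Among Rel and the other IkB family genes 3 of 8 were lower. Bcl3, a nuclear IkB protein that binds p50 and p52, had means of 25.2 FPKM ± 6.39 (wild type) and 19.5 FPKM ± 3.62 (knockout; SD, n = 5 each), a log2 difference of -0.33, and Rel differed by -0.10 (limma adjusted p = 0.976 for both). The Rel value was -0.061 when wild-type 3 was left out and -0.17 when knockout 4 was.

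Among 21 measured textbook NF-kB target genes, 14 were lower in knockout kidneys, and the median log2 difference was -0.024. The smallest p belonged to the chemokine genes Ccl20 and Ccl5, neither of which passed. Ccl20, which attracts Th17 cells and dendritic cells, measured 7.84, 3.81, 0.844, 1.84 and 2.3 FPKM in wild-type 1 to 5 and 0.797, 0.774, 1.14, 1.0 and 2.59 FPKM in knockout 1 to 5, on a mean of 50 reads per library. Its log2 difference was -0.78 (limma adjusted p = 0.976) and -0.47 when leaving out wild-type 1, the library with the highest value. Ccl5, a product of T cells among others, differed by -0.55 (limma adjusted p = 0.976), by -0.76 when wild-type 1 was left out and by -0.33 when wild-type 5 was, which had the highest value at 26.8 FPKM. Markers of T and NK cells had lower means in knockout kidneys as well. Nkg7 stood at 5.94 FPKM ± 2.75 against 2.43 FPKM ± 0.499, Cd8a at 2.22 FPKM ± 1.03 against 1.19 FPKM ± 0.309 and Cd3e at 0.861 FPKM ± 0.369 against 0.336 FPKM ± 0.106 (SD, n = 5 each). Cd4 differed less, at 1.94 FPKM ± 0.757 against 1.71 FPKM ± 0.301 (SD, n = 5 each). The groups overlapped for each of these markers. Nkg7, Cd8a and Cd4 did not pass in limma, and Cd3e was under the filter. These markers were named after their values were seen, and their part in the Ccl5 values was not tested. Wild-type 1 was highest for Ccl20 and lowest for Ccl5 among the wild-type libraries.

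**Figure D5:**
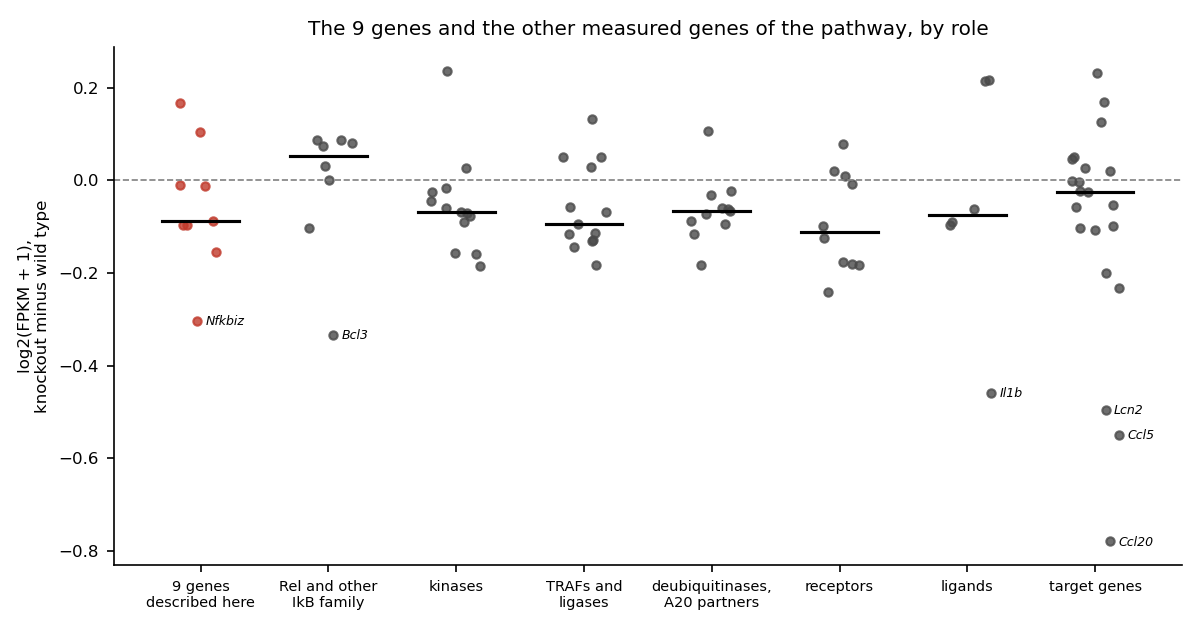
Points give the log2(FPKM + 1) difference, knockout minus wild type (vertical axis), for the 9 genes in red and for the other measured genes of the pathway in grey, by role, with the median as a bar. Most points lie within 0.3 of 0, and the names mark those farther away, led by Ccl20 at -0.78.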

How the data were processed

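Bulk mRNA of obstructed kidney was sequenced in 10 libraries, 5 per genotype, grouped by sample title. HISAT2 2.0.5 is named as a tool, per the submitters' processing notes. No counter, strand setting, annotation or genome build is named in the sources used here. The authors deposited 1 value per gene and library without naming a unit. The deposited values were read as FPKM, since each value times the deposited gene length was a whole multiple of 1 step per library (100.0% of nonzero values, tolerance 0.01 reads), which returned the reads per gene. The deposited FPKM were already scaled by median-of-ratios size factors, since the library totals behind them were 15785100 times those factors in every library. A GRCm38 annotation held 99.8% of the gene identifiers, and 8 of the 9 genes had the same coordinates there; Nfkb2 did not.

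Limma 3.58.1 in R 4.3.3 was fitted with a variance trend to log2(FPKM + 1) of 13435 genes, those whose mean over all libraries reached 1 FPKM, on genotype alone. The Benjamini-Hochberg adjustment ran over all of them, with a threshold of 0.05. Differences are knockout minus wild type, and the pseudocount of 1 understates those of low genes. Intervals are at 95%. The fit was tested on simulated data. The simulated libraries differed only in depth, random noise and planted changes, so that test does not cover a library that stands apart, as wild-type 1 does. The 9 genes, the 7 lists of 93 other pathway genes and the 7 marker lists were chosen with earlier results of these data known. Named from each list were the genes with the 2 smallest p, and for each of the 9 the 2 genes with the highest correlation. Unnamed, clone, gene model, pseudogene and Riken genes were left out of the correlations. Counts of lower genes with a library left out were added after seeing the data. The alternative on the recovered reads was limma-voom, and no other count test was run.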

Additional observations from a re-analysis of the deposited data

Results flagged for a closer look

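Within each group of 5 libraries the highest or lowest value of each of the 9 genes was compared with its nearest neighbour, relative to the range of the group. Of 18 such groups, 1 held a value far from the others by Dixon's 95% criterion, and chance gives about 1 in 20. It was Nfkbiz in wild-type 2, at 15.5 FPKM where the other wild-type libraries measured 9.84 to 11.4 FPKM. The gap was 0.722 of the range, against a critical value of 0.71. Without wild-type 2 the Nfkbiz difference was -0.20 (limma adjusted p = 0.996). Wild-type 2 was also the highest library for Nfkb1, Nfkb2, Rela and Birc3.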

How the results depend on the processing

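No gene of the table passed under any of the 17 alternatives, and none of the 9 genes did. Genes at an unadjusted p under 0.05 numbered 544 in the reported fit and 1096 of 27780 without a filter on low values. With 1 library left out they numbered 308 (without knockout 3) to 1245 (without knockout 4), and 916 without wild-type 1, while limma-voom on the recovered reads gave 529. The median difference of the 9 lay between -0.15 and -0.014 with 1 library left out. Lower genes then numbered 5 to 8 of the 9 and 49 to 62 of the 82 other pathway genes. Of the 9, Nfkb1, Relb, Nfkbia, Nfkbiz, Ikbke and Birc3 kept their sign under all 17 alternatives, some of which could not change it, as given below. With 1 library left out, Rela ranged from -0.063 to 0.031, Nfkb2 from -0.11 to 0.068 and Tnfaip3 from -0.068 to 0.20, so their sign rested on single libraries; the cause was not tested. Upper quartile scaling, another pseudocount and limma-voom changed no sign and no call of the 9. Another filter, no filter, no variance trend and a block for the replicate number leave each difference as it is. Their signs were thus fixed in advance, and they changed no call of the 9.

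Both groups carry replicate numbers 1 to 5, but same-numbered libraries did not consistently deviate together. Their correlations for numbers 1 to 5 were 0.306, 0.111, -0.124, -0.344 and -0.0396. Of the 5 wild-type libraries 2, wild-type 1 and wild-type 2, correlated best with their own number. With the replicate number as a block, 0 genes passed and 435 had an unadjusted p under 0.05, and no call of the 9 changed.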

Other observations

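Spread within the groups differed for the 9 genes. The SD of log2(FPKM + 1) was larger in wild-type than in knockout kidneys for 8 of the 9, with Ikbke as the exception, and for 59.3% of all genes tested. Its median over the 9 was 0.24 in wild-type and 0.16 in knockout kidneys. Without wild-type 1 it was larger in wild-type kidneys for 6 of the 9 and for 49.1% of all genes tested, and the wild-type median was 0.169. The medians over all genes tested were then 0.172 and 0.171. This comparison was added after seeing the data and no test was made of it.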
